A study of Homo sapiens with 4 samples.

Results

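The mucin genes measured here are MUC1, MUC2, MUC4, MUC5B, MUC6, MUC12, MUC13, MUC15, MUC16 and MUC20. Their probes were taken by gene name from the array annotation, which gave 10 of 31033 gene names and 19 of the 50238 probes on the array. Of these, 18 had a usable value on every array, and 11 probes from 6 genes were well above background on both vec arrays or both shpkp3-2 arrays, or on all of them, and could be tested. The 10 genes differed in what was detectable: 6 had a probe well above background on all 4 arrays (MUC1, MUC2, MUC4, MUC5B, MUC6 and MUC20), MUC16 had a probe that was so on 1 array, and MUC12, MUC13 and MUC15 were not well above background on any array.

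The cells were clones of HCT116, a human colorectal carcinoma line. The knockdown clone, shpkp3-2, was stably transfected with a plasmid expressing an shRNA against plakophilin 3 (PKP3), a desmosomal plaque protein that links cadherins to the keratin cytoskeleton. The control, vec, carried the empty vector. There were 2 arrays per clone, numbered 1 and 2, and RNA was collected from both clones on 2 occasions, the number naming the occasion. The labels give 5 μg/ml puromycin as the selection agent, while the methods of the study name blasticidin. The comparison is therefore between 1 knockdown clone and 1 vector clone, and differences between clones that are unrelated to PKP3 cannot be told apart from the knockdown. P-values measure only the spread between these arrays.

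Mucins are large glycoproteins whose central stretches are rich in threonine, serine and proline and carry dense O-linked sugars. Gel-forming mucins are secreted and build the mucus layer. MUC2 is the main one of the colon, MUC5B is best known from the airway and salivary glands, and MUC6 from gastric glands. Membrane mucins stay on the apical surface, where the outer part shields the cell and a short tail faces the cytoplasm. Among them, MUC1 binds beta-catenin and receptor kinases, MUC4 is a partner of ERBB2, MUC16 carries the CA125 antigen and binds mesothelin, and MUC20 binds the receptor MET. MUC12 and MUC13 are membrane mucins of the intestine, and MUC15 is a smaller membrane mucin.

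The sequences of 9 probes are shown because they set what each signal reports, and because the same gene was read by probes in quite different kinds of sequence. Capitals mark threonine codons (ACN) in the open reading frame of the probe with the most threonine, serine and proline codons. That frame was read from the 60 bases of the probe alone and was not checked against an annotation. The probes of the membrane mucins MUC20, MUC1 and MUC4 were as follows.
MUC20 GT_44k_23_P92225: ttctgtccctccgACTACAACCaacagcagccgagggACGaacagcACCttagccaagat
MUC1 GT_44k_23_P137856: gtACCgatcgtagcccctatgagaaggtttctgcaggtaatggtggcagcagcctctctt
MUC4 GT_44k_24_P208825: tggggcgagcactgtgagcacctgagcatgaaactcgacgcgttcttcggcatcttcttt
The probes of the gel-forming mucins MUC2, MUC5B and MUC6 were as follows.
MUC2 GT_44k_24_P341761: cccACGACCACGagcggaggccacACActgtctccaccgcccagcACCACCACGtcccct
MUC2 GT_44k_23_P256784: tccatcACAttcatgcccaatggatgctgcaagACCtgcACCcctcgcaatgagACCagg
MUC5B GT_44k_24_P324141: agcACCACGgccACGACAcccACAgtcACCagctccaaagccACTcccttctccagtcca
MUC5B GT_44k_24_P102650: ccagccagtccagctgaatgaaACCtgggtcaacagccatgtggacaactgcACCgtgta
MUC6 GT_44k_24_P752518: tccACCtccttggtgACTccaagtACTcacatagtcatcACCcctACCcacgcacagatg
MUC6 GT_44k_24_P88079: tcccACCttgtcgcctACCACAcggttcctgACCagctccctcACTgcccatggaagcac

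In MUC2 P341761, 16 of 20 codons were for threonine, serine or proline, and in MUC5B P324141 15 of 20, against 1 of 20 in the MUC4 probe. The GC content of the 19 mucin probes ran from 38.3% in MUC13 to 70.0% in MUC2 P341761, and the median over all probes of the array was 41.7%. No run of 20 bases was shared with a probe of another gene, except in MUC5B GT_HS_44k_2262, which shared a run with 1 probe listed under another gene name. Signals of different probes are not compared with each other below, since probes differ in how brightly they bind.

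A signal is the processed intensity of the scanner software on a linear scale, in arbitrary units. Levels are the log2 of that signal minus the 75th percentile of its array, and a difference is shpkp3-2 minus vec on that log2 scale. The 75th percentile lay between 374.2 and 498.7 signal units, 60.5% to 63.5% of 51538 spots per array were well above background, and no spot was saturated. The PKP3 probe gave signals of 20850.3 and 22839.8 on the vec arrays against 3414.4 and 3078.4 on the shpkp3-2 arrays, a difference of -2.54 (SE 0.23, limma adjusted p = 0.0188), so that shpkp3-2 had 17.2% of the vec level. Of 10 colon epithelium markers 9 were well above background on all arrays, with VIL1 so on 1 array. KRT19, KRT18, KRT8, EPCAM and CDH1 gave signals of 2631.4 to 282205.2. KRT20, CDX2, GPA33 and LGALS4 were dimmer, at 12.4 to 98.6. The leukocyte markers PTPRC and LYZ, 5 of 6 fibroblast markers and 4 of 5 endothelial markers were not well above background on any array. CD14, CD3E and ITGAM, also leukocyte genes, were so on all 4 arrays, as were the lung genes SFTPC and SCGB1A1, at signals of 17.3 to 109.6. Several mucin probes lay in that signal range, and how much of their signal came from the named transcript was not tested.

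No mucin probe was called different between the clones. With limma, 0 of the 11 tested probes passed an adjusted p of 0.05 in either direction, where 0.390% of the 30512 probes tested over the array passed (0.246% higher and 0.144% lower in shpkp3-2). At an unadjusted p under 0.05, 3 mucin probes were higher (both of MUC20 and 1 of MUC6) and 2 were lower (MUC1 and MUC4), where 7.35% and 4.98% of all tested probes were. The MUC6 probe among them entered the test only through shpkp3-2, where it was brighter, and had to differ to some extent. Of the 11 differences 6 were above 0 and 5 below, with a median of 0.12, and the median over all probes tested was 0.05. Both shpkp3-2 arrays lay above both vec arrays for 4 mucin probes and below them for 2, against 27.2% and 18.0% of all tested probes, and the groups overlapped for the other 5. The 6 probes without overlap stand beside 45.2% of all tested probes. An exact permutation test of 2 arrays against 2 cannot give a two-sided p below 0.333. With the time of RNA collection as a block, 2 mucin probes were called higher, both of MUC20, and 0 lower, where 1.65% and 1.11% of all probes were called. That fit had 1 residual degree of freedom and a prior of 31.0, and arrays of the same collection did not deviate together (r = -0.199 over 30512 probes). With the collections crossed, a setting chosen after seeing the data, 0 mucin probes were called. The MUC20 probes share their gene and are not independent of each other.

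**Figure D1:**
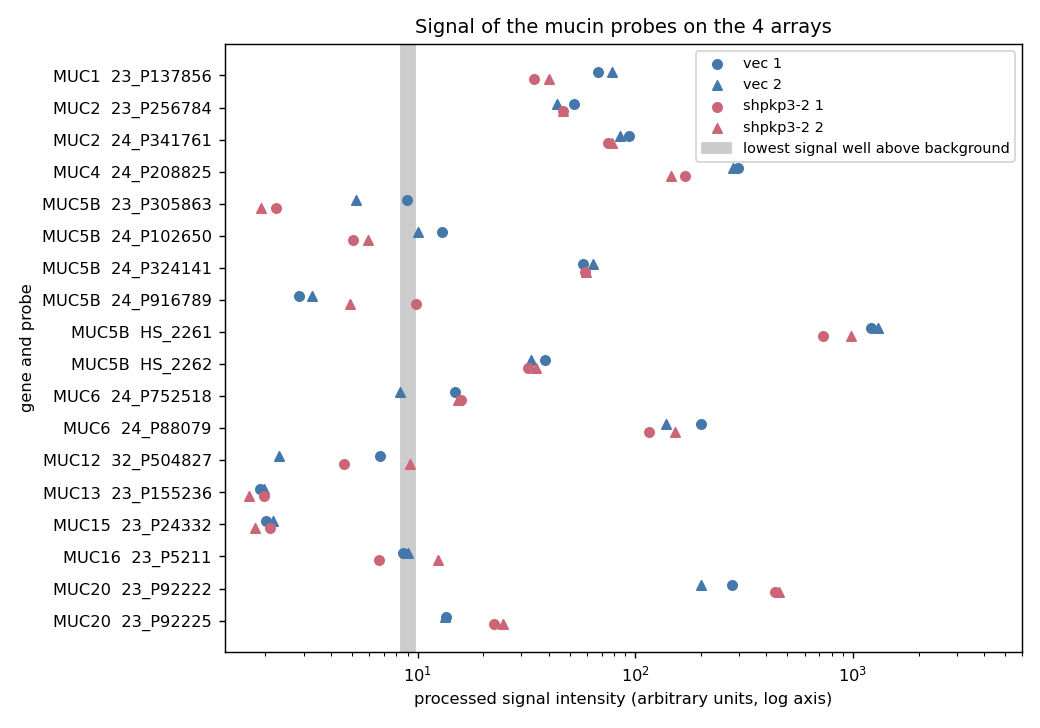
Processed signal intensity (log axis, arbitrary units) of the 18 mucin probes with a value on all 4 arrays, 1 point per array, with circles for arrays 1 and triangles for arrays 2. The grey band runs over the lowest signal well above background on each array, from 8.412 to 9.743. The shpkp3-2 points lie to the right of the vec points for both MUC20 probes and to the left for MUC1 and MUC4. Other probes separate as well, such as MUC5B GT_HS_44k_2261 to the left and MUC6 P752518 to the right. These signals are not scaled between arrays. MUC13 and MUC15 lie near 2 on every array.

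MUC20 had the largest differences among the mucin probes tested, and its probes gave nearly the same size. Probe P92222 read 278.0 and 201.1 on the vec arrays against 439.5 and 457.2 on the shpkp3-2 arrays. Both knockdown arrays were thus brighter than either vector array. Mean levels were -0.88 ± 0.06 in vec and 0.25 ± 0.05 in shpkp3-2 (SD, n = 2), a difference of 1.13 (SE 0.17, 95% interval 0.71 to 1.56) or 2.20-fold. The limma adjusted p was 0.0896 without the block and 0.0155 with it, a call that rests on the block just described, and it ran from 0.0155 to 0.342 over the alternatives. It was also called with normexp background correction, at a difference of 0.95 and an adjusted p of 0.0287. Within the collections the differences were 1.06 and 1.21. P92222 was the 1 mucin probe that was at least 2-fold above the vec mean on each shpkp3-2 array, a rule without a test that 1.12% of all probes met upwards and 0.623% downwards, and no mucin probe met it downwards.

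The other MUC20 probe, P92225, whose sequence is given above, read 13.5 and 13.3 on the vec arrays against 22.4 and 24.8 on the shpkp3-2 arrays. The groups did not overlap here either, although the vec signals were only a little above the lowest signals well above background. Mean levels were -5.03 ± 0.26 and -4.00 ± 0.12 (SD, n = 2), and the difference was 1.03 (SE 0.21, 95% interval 0.53 to 1.54), or 2.04-fold. The limma adjusted p was 0.158 without the block and 0.0320 with that same block, with a range of 0.0320 to 0.501 over the alternatives. With normexp, which adds 50 to the signal and so draws dim probes together, the difference was 0.33. MET, the receptor that MUC20 binds, had a difference of 0.00 (SE 0.18, 95% interval -0.43 to 0.44) at its brightest probe.

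MUC1 was read by 1 probe, with signals of 67.3 and 78.3 in vec against 34.4 and 40.1 in shpkp3-2. Both knockdown arrays were below both vector arrays. Mean levels were -2.59 ± 0.43 and -3.34 ± 0.17 (SD, n = 2). The difference was -0.75 (SE 0.25, 95% interval -1.38 to -0.13), which puts shpkp3-2 at 59.3% of vec, with an unadjusted p of 0.0253 and a limma adjusted p of 0.334. It came to -0.57 in the first collection and -0.94 in the second, and to -0.20 with normexp.

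MUC4 was also read by 1 probe, which gave 295.1 and 280.6 in vec against 168.3 and 145.9 in shpkp3-2. Again the groups did not overlap, with the knockdown arrays below. Mean levels were -0.60 ± 0.22 and -1.26 ± 0.13 (SD, n = 2), and the difference was -0.66 (SE 0.20, 95% interval -1.16 to -0.17), or 63.1% of vec. The unadjusted p was 0.0163 and the limma adjusted p 0.297, and 0.298 with the block. ERBB2, the partner of MUC4, differed by 0.22 (SE 0.18, limma adjusted p = 0.650). MUC4 and MUC20 are neighbours among the protein-coding genes of chromosome 3 in the RefSeq annotation of GRCh38.p14. Other kinds of gene between them were not looked for. The interval of the MUC4 difference does not meet that of either MUC20 probe.

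The remaining membrane mucins were at or near background. MUC16 gave 8.60 and 9.02 in vec against 6.68 and 12.4 in shpkp3-2, and only the last of these was well above background. MUC12 gave 6.72 and 2.32 in vec against 4.58 and 9.19 in shpkp3-2, none of them well above background. MUC13 gave 1.90 and 1.97 in vec against 1.97 and 1.69 in shpkp3-2. MUC15 gave 2.02 and 2.16 in vec against 2.10 and 1.79 in shpkp3-2. For these 4 genes only a bound is measured, and no difference between the clones was computed. Each was read by 1 probe, and MUC13 and MUC15 had steady low signals on every array while those of MUC12 spread around the detection limit.

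**Figure D2:**
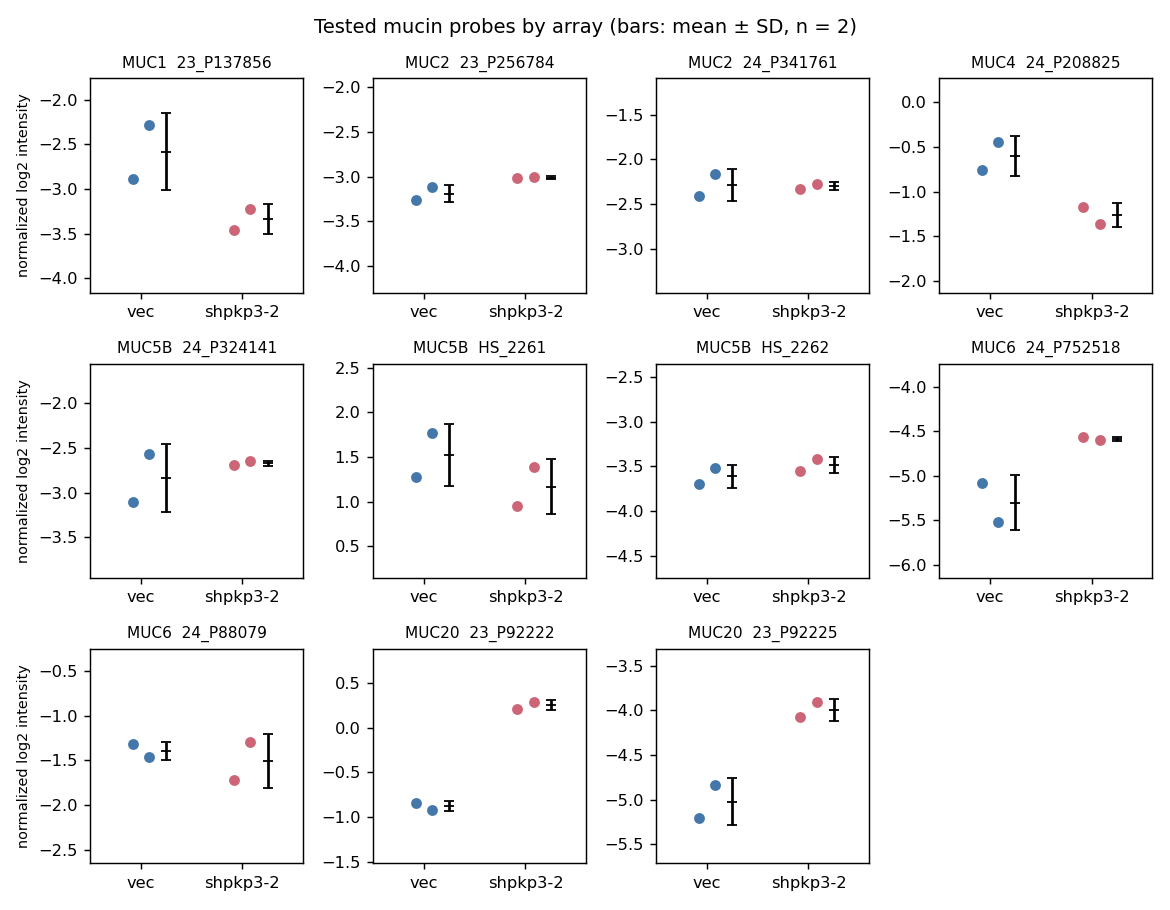
Level of each of the 11 tested mucin probes on each array, in log2 units relative to the 75th percentile, with every panel spanning the same number of log2 units around the mean of its own probe. Points are single arrays (array 1 on the left), and the bar beside them is the clone mean ± SD (n = 2). The 2 arrays of a clone lie close together for MUC20 P92222 (SD 0.06 and 0.05), and those of vec lie further apart for MUC1 (SD 0.43).

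Among the gel-forming mucins, MUC2 did not differ detectably by either tested probe. P256784 gave 52.1 and 43.9 in vec against 46.6 and 46.8 in shpkp3-2, with mean levels of -3.19 ± 0.10 and -3.01 ± 0.02 (SD, n = 2). After scaling, the knockdown arrays lay just above the vector arrays, by 0.18 (SE 0.17, 95% interval -0.25 to 0.61, limma adjusted p = 0.707). P341761, in threonine-rich sequence, gave 93.8 and 85.1 in vec against 75.1 and 77.8 in shpkp3-2, and the scaled levels of the clones overlapped. Its difference was -0.01 (SE 0.19, 95% interval -0.47 to 0.44, limma adjusted p = 0.984). Both intervals lie within a 2-fold change in either direction. The third MUC2 probe, P84657, was left out because the software had marked it as a non-uniform spot on 1 array: it read 2.25 and 2.29 in vec, 2.01 on shpkp3-2 2 and 962.2 on the marked spot of shpkp3-2 1.

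MUC5B was read by 6 probes, of which 3 could be tested. The probe GT_HS_44k_2261 gave 1213.2 and 1299.4 in vec against 730.0 and 982.8 in shpkp3-2. Its scaled levels overlapped between the clones, with means of 1.53 ± 0.34 and 1.17 ± 0.32 (SD, n = 2) and a difference of -0.36 (SE 0.26, 95% interval -0.98 to 0.27, limma adjusted p = 0.606). It ran from -0.60 without vec 1 to -0.11 without vec 2. The threonine-rich P324141 gave 57.7 and 64.0 in vec against 58.6 and 59.5 in shpkp3-2, a difference of 0.17 (SE 0.23, 95% interval -0.40 to 0.74, limma adjusted p = 0.790). GT_HS_44k_2262 gave 38.4 and 33.3 in vec against 32.3 and 35.1 in shpkp3-2, a difference of 0.12 (SE 0.18, 95% interval -0.32 to 0.57, limma adjusted p = 0.811). The 3 tested probes thus did not share a sign, and each interval included 0.

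The other 3 MUC5B probes were at background. P102650 gave 12.9 and 10.1 in vec against 5.07 and 5.90 in shpkp3-2, and only vec 1 was well above background. P305863 gave 8.97 and 5.24 in vec against 2.25 and 1.92 in shpkp3-2, and P916789 gave 2.87 and 3.26 in vec against 9.84 and 4.90 in shpkp3-2, none of them well above background. The signals were thus lower in shpkp3-2 for P102650 and P305863 and higher for P916789, all below or near the limit of detection.

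MUC6 had 2 probes that could be tested, and they did not move together. P752518 gave 14.8 and 8.32 in vec against 15.9 and 15.4 in shpkp3-2. It was well above background on vec 1 and both shpkp3-2 arrays, and it entered the test through shpkp3-2, the clone where it was brighter. Mean levels were -5.30 ± 0.31 and -4.59 ± 0.02 (SD, n = 2), with a difference of 0.71 (SE 0.21, 95% interval 0.19 to 1.23, unadjusted p = 0.0158, limma adjusted p = 0.293). With normexp it was 0.25. P88079 gave 199.4 and 138.2 in vec against 115.4 and 152.7 in shpkp3-2, and its levels overlapped, with a difference of -0.11 (SE 0.21, 95% interval -0.63 to 0.41, limma adjusted p = 0.860). P88079 was -0.39 in the first collection and 0.17 in the second.

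The gel-forming mucins lie together on chromosome 11 in the RefSeq annotation, in the order MUC6, MUC2, MUC5AC and MUC5B. MUC5AC, the gastric and airway gel-forming mucin, gave 68.1 and 68.8 in vec against 58.7 and 72.4 in shpkp3-2, and its difference was 0.14 (SE 0.23, 95% interval -0.41 to 0.70, limma adjusted p = 0.829). At the brightest probe of each of the 4 neighbours, the differences were -0.11, -0.01, 0.14 and -0.36, and every interval included 0.

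**Figure D3:**
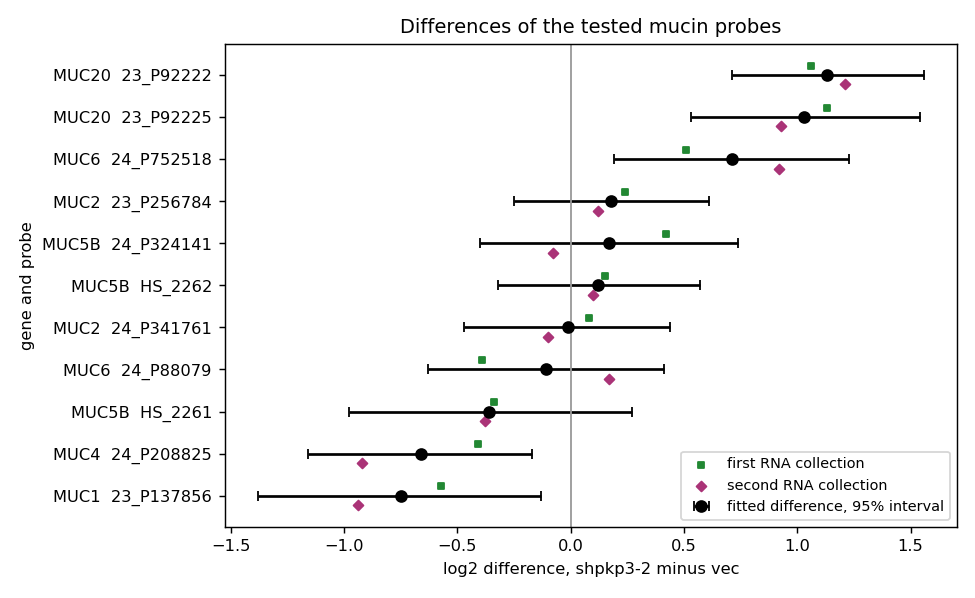
Log2 difference, shpkp3-2 minus vec, of the 11 tested mucin probes with its 95% interval from limma in black, and the differences within the first (squares) and second (diamonds) RNA collection in color. The 2 MUC20 probes lie at 1.13 and 1.03, and MUC1 and MUC4 at -0.75 and -0.66, all with intervals clear of 0, as does MUC6 P752518 at 0.71, which entered the test only through shpkp3-2. No adjusted p is under 0.05, the lowest being 0.0896.

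Of 16 further genes of mucins and mucin-like surface proteins, 15 were on the array and 9 could be tested at their brightest probe. With limma 0 were called (1 higher and 2 lower at an unadjusted p under 0.05), where 0.453% of the 14571 genes tested were called (0.275% higher and 0.178% lower) and 11.5% had an unadjusted p under 0.05 (6.99% higher and 4.52% lower). Their median difference was 0.01, and over all genes it was 0.05. MCAM, an adhesion molecule of the immunoglobulin family also called MUC18, gave 1255.0 and 894.3 in vec against 461.2 and 509.5 in shpkp3-2. Its difference was -0.92 (SE 0.18, 95% interval -1.35 to -0.48, limma adjusted p = 0.152), and a second MCAM probe gave -0.91 (limma adjusted p = 0.148). PODXL, an anti-adhesive sialomucin, gave 10475.2 and 9383.9 in vec against 5919.2 and 5525.3 in shpkp3-2, with a difference of -0.58 (SE 0.18, limma adjusted p = 0.311). MUC8 gave 33.7 and 31.3 in vec against 36.3 and 71.2 in shpkp3-2, so that 1 array set most of its difference of 0.86 (SE 0.34, limma adjusted p = 0.399).

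The other 6 of these genes had intervals that included 0. They were CD164 at -0.01, PARM1 at 0.30, OVGP1 at -0.50, MUC5AC at 0.14, MUC3B at 0.14 and MUC3A at 0.01. Dimmer probes gave 0.42 for CD164 and -0.33 and 0.14 for PARM1, with intervals that also included 0. The sign for CD164 and PARM1 thus depended on the probe. MUC3A and MUC3B are near-identical copies, so that either probe may read both. The intestinal membrane mucin MUC17, the salivary mucins MUC7 and MUC19, and MUC21, EMCN and MUCL1 were not well above background on any array.

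Mucin O-glycans begin when a GALNT enzyme adds N-acetylgalactosamine to serine or threonine. Of 15 GALNT genes 12 were tested. Limma called 1 higher and 0 lower, 3 were higher at an unadjusted p under 0.05, and 10 differences were above 0 with a median of 0.30. Over all genes 0.275% were called higher and 0.178% lower, 6.99% were higher at an unadjusted p under 0.05, and 57.4% were above 0 with a median of 0.05. GALNT5 gave 117.1 and 54.9 in vec against 359.2 and 324.4 in shpkp3-2, well apart although the vec arrays differed from each other. It rose by 2.30 (SE 0.27, 95% interval 1.64 to 2.96, limma adjusted p = 0.0433), or 4.93-fold. GALNT14 had a difference of 0.79 (SE 0.22, limma adjusted p = 0.258) and GALNT7 of 0.50 (SE 0.18, limma adjusted p = 0.359). The adjusted p of GALNT5 ran from 8.55e-07 with the block to 0.214 without the filter on detection, and 7 of 11 alternatives kept it under 0.05.

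The sugars are then extended, branched and capped. Of 24 genes of these steps 20 were tested, and limma called 0 higher and 1 lower (2 higher and 1 lower at an unadjusted p under 0.05), with a median difference of 0.12. Over all genes 0.275% were called higher and 0.178% lower, and 6.99% and 4.52% were so at an unadjusted p under 0.05. GCNT3, the branching enzyme of mucin-type glycans in mucus-secreting tissue, gave 490.6 and 355.8 in vec against 77.5 and 97.7 in shpkp3-2. It was lower on both knockdown arrays and fell by 2.05 (SE 0.20, 95% interval -2.54 to -1.56, limma adjusted p = 0.0238), to 24.1% of vec. Its second probe gave 19.2 and 11.5 in vec and was not well above background in shpkp3-2 (2.06 and 4.16), where it was at least 1.42-fold lower (limma adjusted p = 0.112). It entered the test through vec, where it was brighter, so its p adds no support. The adjusted p of the brighter probe ran from 6.97e-06 to 0.172, and 8 of 11 alternatives kept it under 0.05. It was 0.0550 without vec 2. FUT3, the Lewis fucosyltransferase, had a difference of 0.95 (SE 0.18, limma adjusted p = 0.150), and B3GNT3, an enzyme of core extension, of 0.83 (SE 0.19, limma adjusted p = 0.199).

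Goblet cells store and release the gel-forming mucins. Of 21 genes of goblet cells and the mucus layer 11 were tested. Limma called 0 (0 higher and 1 lower at an unadjusted p under 0.05), 4 differences were above 0, and the median was -0.12, where 0.453% of all genes were called, 4.52% were lower at an unadjusted p under 0.05 and 57.4% were above 0. The probes of 9 genes were not well above background on any array, among them AGR2, a disulfide isomerase needed to make MUC2, and CLCA1, ZG16, SPINK4 and REG4. SYTL2, a vesicle docking protein, gave 735.8 and 372.3 in vec against 208.9 and 313.1 in shpkp3-2, with a difference of -0.82 (SE 0.30, limma adjusted p = 0.365). A second SYTL2 probe gave -1.13 (SE 0.31), with a limma adjusted p of 0.257 without the block and 0.0208 with it, but it was well above background on only 1 shpkp3-2 array and entered the test through vec, where it was brighter. The trefoil peptides that are secreted with mucins had differences of 0.44 for TFF3 (limma adjusted p = 0.506) and -0.33 for TFF2 (limma adjusted p = 0.575). FCGBP, a mucus protein that binds MUC2, gave 232.3 and 234.4 in vec against 225.1 and 254.7 in shpkp3-2.

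Of 21 transcription factors known to act on mucin genes, 17 were tested, and limma called 0 higher and 1 lower (0 higher and 1 lower also at an unadjusted p under 0.05), with a median of -0.03. Of all genes 0.178% were called lower and 4.52% were lower at an unadjusted p under 0.05. The gene called was FOXA2, a forkhead factor of gut and airway epithelium. Its brightest probe gave 92.1 and 73.5 in vec against 12.8 and 15.4 in shpkp3-2. It fell by 2.34 (SE 0.19, 95% interval -2.81 to -1.88, limma adjusted p = 0.0122), to 19.7% of vec, and with normexp the difference was -0.80 (adjusted p = 0.0608). A second FOXA2 probe gave 58.0 and 39.2 in vec and was not well above background in shpkp3-2 (5.68 and 3.14), at least 4.55-fold lower (limma adjusted p = 0.0196). This probe entered the test through vec, where it was brighter, so its p adds no support. The third probe ran the other way, with 13.1 and 7.35 in vec against 28.0 and 11.0 in shpkp3-2 and a difference of 1.05 (SE 0.44), at a limma adjusted p of 0.415 without the block and 0.0354 with it. It was well above background on 1 vec array and entered the test through shpkp3-2, where it was brighter, so its p adds no support for a rise. The signals of the FOXA2 probes thus did not share a direction. Over the alternatives the adjusted p of the brightest ran from 4.51e-07 to 0.114, with 8 of 11 under 0.05.

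Of the other regulators, SPDEF, a driver of goblet cell maturation, had a difference of 0.07 (limma adjusted p = 0.904). ATOH1, which commits intestinal cells to the secretory lineage, was well above background on none of the arrays. HES1, the Notch target that represses ATOH1, differed by 0.45 (limma adjusted p = 0.453), and SMAD4 by -0.31 (limma adjusted p = 0.831), with vec signals of 421.9 and 103.7 that were far apart.

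All 17 genes of the partners and sheddases of membrane mucins were tested. Limma called 0 (0 higher and 2 lower at an unadjusted p under 0.05), where 0.453% of all genes were called and 4.52% were lower at an unadjusted p under 0.05, and the median was -0.03. SRC, a kinase that phosphorylates the MUC1 tail, gave 516.7 and 356.4 in vec against 221.8 and 180.2 in shpkp3-2, a difference of -0.89 (SE 0.19, limma adjusted p = 0.183). ADAM17, a protease that releases the outer part of MUC1, gave 1612.3 and 1033.9 in vec against 678.6 and 732.8 in shpkp3-2, a difference of -0.66 (SE 0.19, limma adjusted p = 0.275). In both genes the groups did not overlap. EGFR differed by 0.36 (SE 0.31, limma adjusted p = 0.667), with vec signals of 189.4 and 80.3 on either side of those in shpkp3-2. A dimmer EGFR probe, well above background on all 4 arrays, gave 19.4 and 13.2 in vec against 27.1 and 26.5 in shpkp3-2. Its difference was 0.95 (SE 0.18, limma adjusted p = 0.142).

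**Figure D4:**
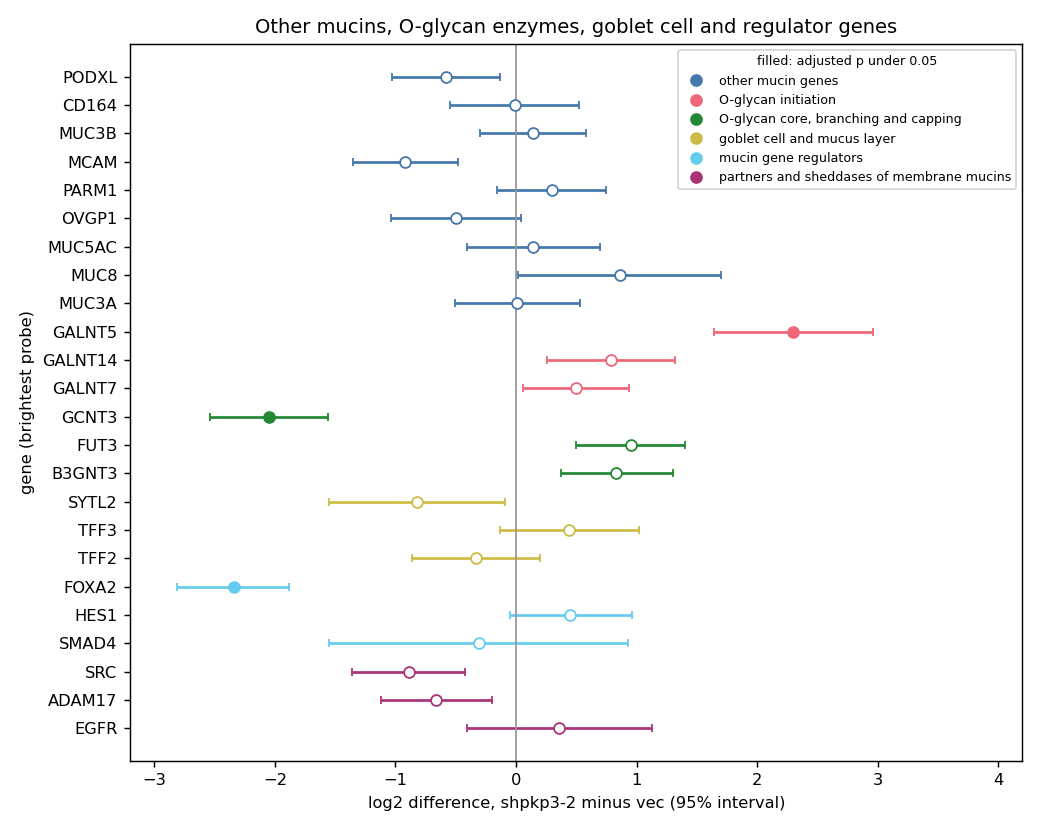
Log2 difference, shpkp3-2 minus vec, with its 95% interval from limma, at the brightest probe of further mucins, O-glycan enzymes, goblet cell genes, regulators and partners, colored by list. Filled points have an adjusted p under 0.05, which holds for GALNT5 at 2.30, GCNT3 at -2.05 and FOXA2 at -2.34.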

How the data were processed

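The 2 vec and 2 shpkp3-2 samples were hybridized as Cy3 labeled RNA to Agilent single color arrays, with 1 slide for all 4. The slide positions of the 2 clones were adjacent blocks, so that position and clone cannot be told apart. The authors deposited the output of Agilent Feature Extraction (9.1 in the submitters' processing notes, 10.7.3.1 in the file headers) with no normalization between arrays. The deposited processed signal is a background-subtracted, detrended intensity on a linear scale. The tables also hold mean and background intensity and flags set to 0 or 1 by the software. The array was designed on hg18, so no coordinates are given. The authors' tables of fold changes were not used.

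The log2 of the processed signal minus the 75th percentile of each array over non-control spots was taken, non-uniform outlier spots (26 to 39 per array) were left out, and spots of a probe were averaged. This left 50117 of 50238 probes. Of these, 30512 had the flag for a signal well above background on both vec arrays, both shpkp3-2 arrays or all of them. They were tested by lmFit and eBayes of limma 3.58.1 (R 4.3.3) without covariates, with Benjamini-Hochberg adjustment over all of them and a threshold of 0.05. A gene outside the 10 mucins is given by its brightest probe over the 4 arrays. Probes were matched to RefSeq symbols of GRCh38.p14 by accession (28595 probes), symbol (2998) or older symbol (1176), and 17469 had no match. An at-least fold sets the mean of the bright clone against the lowest signal well above background. Only 4 arrays limit the precision.

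On simulated data with 200 changed probes among 30512, the fit recovered 84 of 100 changes of 4 and 46 of 100 of 2 log2 units, with 3 false calls. Changes under 2 log2 units were not simulated. Every mucin difference was smaller than that, so the recovery of changes of their size is not known.

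The series design text pairs arrays of the same number through the time of RNA collection. Their deviations from the clone means correlated at -0.199 over 30512 probes. The main fit has no block, and values with the block are given where a call changes.

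The members and gene lists were chosen with earlier results of these data known. Named were PKP3, the 10 mucins with every probe, every tested gene of the further mucins, and from each other list the genes called and the 3 largest differences among genes well above background on all arrays. MET, ERBB2, SPDEF, ATOH1, FCGBP, second probes and genes not detected were named after their values were seen. The values of 1 marker gene are not reported here. The alternatives were normexp (offset 50), quantile normalization, median centring, no filter, detection on all 4 arrays, a weaker detection flag, the replicate block, leaving out each array, and for genes the mean over probes or any probe. Python 3.11.15, numpy 2.4.6, pandas 2.3.3 and matplotlib 3.10.9 were used for sequences and figures.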

Additional observations from a re-analysis of the deposited data

How the results depend on the processing

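Differences of the 11 mucin probes kept their sign under the 11 alternatives run on each (10 for MUC6 P752518, which was not detected on all arrays), except MUC2 P341761 (0.05 with normexp, -0.14 to 0.11 with 1 array left out), MUC5B P324141 (-0.10 to 0.44 with 1 array left out) and MUC6 P88079 (-0.32 to 0.10). As a mean over tested probes, MUC2 came to 0.08, MUC6 to 0.30 and MUC5B to -0.02. Left-out arrays gave 1.09 to 1.17 for MUC20 P92222, 0.85 to 1.22 for MUC20 P92225, -1.06 to -0.45 for MUC1 and -0.82 to -0.51 for MUC4. Where an array is left out, the lone array of its clone is assumed to vary like the others. Mucin probes called higher were 1 with normexp and 2 with the replicate block (1.13 and 1.03, adjusted p 0.0155 and 0.0320), and 0 with an array left out. Mucin probes past the 2-fold rule were 0 upwards with normexp, 1 to 2 with an array left out (2 without vec 2 and without shpkp3-2 1), and 1 downwards with no filter or the weaker flag.

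PKP3 stayed at -2.54 but had an adjusted p of 0.135 with no filter and 0.145 with the weaker flag, and it was -2.80 to -2.28 with an array left out. Called higher over all probes (75) were 42 with quantile normalization, 10 with no filter, 25 with detection on all arrays, 1 with the weaker flag, 503 with the block and 108 to 243 with an array left out. Called lower (44) were 8 with no filter, 21 with detection on all arrays, 1 with the weaker flag, 338 with the block and 55 to 154 with an array left out. The block left 1 residual degree of freedom and a prior of 31.0, against 2 and 3.94 without it. A crossed block (vec 1 with shpkp3-2 2), chosen after seeing the data, called 64 higher and 40 lower, and 0 mucin probes in either direction. The 2-fold rule over all probes gave 104 up and 55 down with normexp, 661 and 519 with no filter, 202 and 120 with detection on all arrays, 661 and 454 with the weaker flag, and 431 to 1179 and 320 to 672 with an array left out, where it gave 341 and 190.

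GALNT5 was lost with quantile normalization, no filter, detection on all arrays and the weaker flag, where the initiation list had 0 calls. GCNT3 was lost with no filter, the weaker flag and without vec 2, which gave its list 0 to 1 calls with an array left out, and 0 otherwise. FOXA2 was lost with normexp, no filter and the weaker flag, with 0 calls in its list. The goblet list had 0 to 1 with an array left out, the 1 being BCAS1 without shpkp3-2 1 (2.66, adjusted p 0.00934). The median difference over all probes was 0.05, -0.02 with median centring, 0.00 with quantile normalization and 0.08 with normexp. The cause of these shifts was not tested. Dim probes near the detection limit, including MUC12, MUC13, MUC15 and MUC16, carry only a bound.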
